A study of Mus musculus with 2 samples.

Results

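The 44 protein-coding genes for collagen chains on the mouse autosomes and X chromosome were examined for H3K27me3, out of 21755 protein-coding genes on the same chromosomes. Members were all genes whose symbol in the GENCODE annotation of mm10 reads Col, digits, a, digits, such as Col1a1. A gene was called marked when a peak of each of the 2 replicates overlapped the window of 1 kb to either side of its annotated 5' end. By this rule 30 of the 44 collagen genes (68.2%) were marked, against 26.1% of all coding genes (5679 of 21755). The family was therefore marked well above the general rate, and most of its unmarked genes had no peak near their start in either replicate.

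The data were chromatin immunoprecipitation and sequencing (ChIP-seq) of H3K27me3 in E14TG2a.4, a male embryonic stem cell line of mouse strain 129/Ola, labelled as embryonic and 3.5 days of age. The series holds a single group of 2 biological replicates with no treatment, and no other cell type or untreated comparison was analysed here. E14TG2a.4 is a cultured line, so the replicates are 2 samples of that line and not of separate animals. The deposited per-replicate lists held 63651 peaks over 53.6 Mb in replicate 1 and 98582 peaks over 58.4 Mb in replicate 2, and read depth is unknown because the lists give no read counts. Of 6 genes active in pluripotent cells, Pou5f1, Nanog, Sox2, Zfp42 and Klf4 had no peak at their start in either replicate, while Esrrb had peaks in both, with 1447 and 741 bp covered. Of 10 fibroblast genes, 4 (Pdgfra, Thy1, Twist1 and Twist2) were marked and 6 (S100a4, Fn1, Vim, Dcn, Lum and Postn) had no peak at their start in either replicate, which reads against the 26.1% of all coding genes given above. Peaks alone do not show which cells contributed them.

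H3K27me3, trimethylation of a lysine on the tail of histone H3, is written by the Polycomb repressive complex PRC2 and is associated with genes that are kept silent. In embryonic stem cells it lies over CpG-rich promoters of many genes used later in development. Collagens are trimeric proteins of the extracellular matrix, in which each gene encodes a single chain type. Fibrillar collagens build the ropes of bone, cartilage, tendon and skin, and network-forming collagens build sheets such as basement membranes. The remaining classes decorate fibrils, form beaded filaments or anchoring fibrils, span the cell membrane or sit in basement membrane zones.

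The promoters that the comparisons below return to are shown first, because the 3 pairs of type IV genes and the fibrillar genes Col2a1 and Col3a1 span the range from full coverage to none. Each is 300 bases of the C57BL/6J reference (GRCm38, the RefSeq assembly that corresponds to mm10), with every CG in capitals and the rest in lower case. The cells are of another strain, so their own sequence can differ. The shared promoter of Col4a1 and Col4a2 (chr8:11312666-11312965, plus strand) held 37 CG and that of Col4a4 and Col4a3 (chr1:82586736-82587035, plus strand) held 16. Col4a5 (chrX:141475135-141475434, plus strand) held 11 and Col4a6 (chrX:141474027-141474326, minus strand) held 3. Col2a1 (chr15:98004646-98004945, minus strand) held 22, and Col3a1 (chr1:45311288-45311587, plus strand) held 0.
Col4a1-Col4a2: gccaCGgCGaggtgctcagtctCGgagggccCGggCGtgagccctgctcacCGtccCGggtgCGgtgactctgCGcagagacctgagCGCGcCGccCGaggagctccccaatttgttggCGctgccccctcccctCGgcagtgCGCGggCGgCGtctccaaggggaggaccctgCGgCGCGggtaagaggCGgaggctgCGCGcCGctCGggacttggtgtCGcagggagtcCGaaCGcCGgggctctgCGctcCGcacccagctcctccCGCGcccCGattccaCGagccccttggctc
Col4a4-Col4a3: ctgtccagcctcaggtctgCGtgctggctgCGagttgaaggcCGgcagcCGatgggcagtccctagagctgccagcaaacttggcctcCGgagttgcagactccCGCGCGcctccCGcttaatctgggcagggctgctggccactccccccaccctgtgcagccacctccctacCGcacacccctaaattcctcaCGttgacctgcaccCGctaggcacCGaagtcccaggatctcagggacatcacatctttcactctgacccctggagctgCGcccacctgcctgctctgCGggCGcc
Col4a5: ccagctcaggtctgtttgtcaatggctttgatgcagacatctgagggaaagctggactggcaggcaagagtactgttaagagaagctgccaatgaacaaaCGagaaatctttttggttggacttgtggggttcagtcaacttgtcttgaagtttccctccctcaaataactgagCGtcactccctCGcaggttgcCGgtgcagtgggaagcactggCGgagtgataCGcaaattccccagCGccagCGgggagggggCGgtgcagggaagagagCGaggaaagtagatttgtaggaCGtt
Col4a6: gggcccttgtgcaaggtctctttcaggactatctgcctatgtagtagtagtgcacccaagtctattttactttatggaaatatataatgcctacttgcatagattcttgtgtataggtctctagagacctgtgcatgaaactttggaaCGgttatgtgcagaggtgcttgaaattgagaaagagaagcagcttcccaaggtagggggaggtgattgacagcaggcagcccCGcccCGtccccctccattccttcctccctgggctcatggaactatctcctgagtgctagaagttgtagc
Col2a1: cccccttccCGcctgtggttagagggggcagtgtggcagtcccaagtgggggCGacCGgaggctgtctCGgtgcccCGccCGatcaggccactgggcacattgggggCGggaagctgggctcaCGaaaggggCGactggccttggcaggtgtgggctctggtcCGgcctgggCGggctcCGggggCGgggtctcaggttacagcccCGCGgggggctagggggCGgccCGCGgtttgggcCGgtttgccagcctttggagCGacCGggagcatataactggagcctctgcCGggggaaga
Col3a1: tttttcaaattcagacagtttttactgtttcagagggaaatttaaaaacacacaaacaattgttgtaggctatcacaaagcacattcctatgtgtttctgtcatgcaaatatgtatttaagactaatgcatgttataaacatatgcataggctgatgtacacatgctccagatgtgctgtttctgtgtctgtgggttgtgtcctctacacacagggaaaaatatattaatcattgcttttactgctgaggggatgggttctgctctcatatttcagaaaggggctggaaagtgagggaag

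Fibrillar genes were marked in 9 of 11 cases (81.8%), network-forming genes in 6 of 9 (66.7%) and the other classes in 15 of 24 (62.5%). All 3 shares lay above the 26.1% of all coding genes, and a change of 1 or 2 genes in the smaller classes would move their shares past each other. The marked network-forming genes include Col4a1 with Col4a2 and Col4a3 with Col4a4, and each of these pairs shares its peaks. Under a stricter rule, at least 50% of the 2001 bp window covered in each replicate, 22 of 44 collagen genes (50%) were called, against 14% of all coding genes. These were 6 fibrillar, 5 network-forming and 11 other genes. Over all 44 collagen genes the median covered length was 1163.5 bp in replicate 1 and 1339 bp in replicate 2, against 0 bp in both replicates over all coding genes. The window was covered from end to end in both replicates at 5 collagen genes (Col2a1, Col12a1, Col14a1, Col9a2 and Col26a1), against 303 of all 21755 coding genes.

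**Figure D1:**
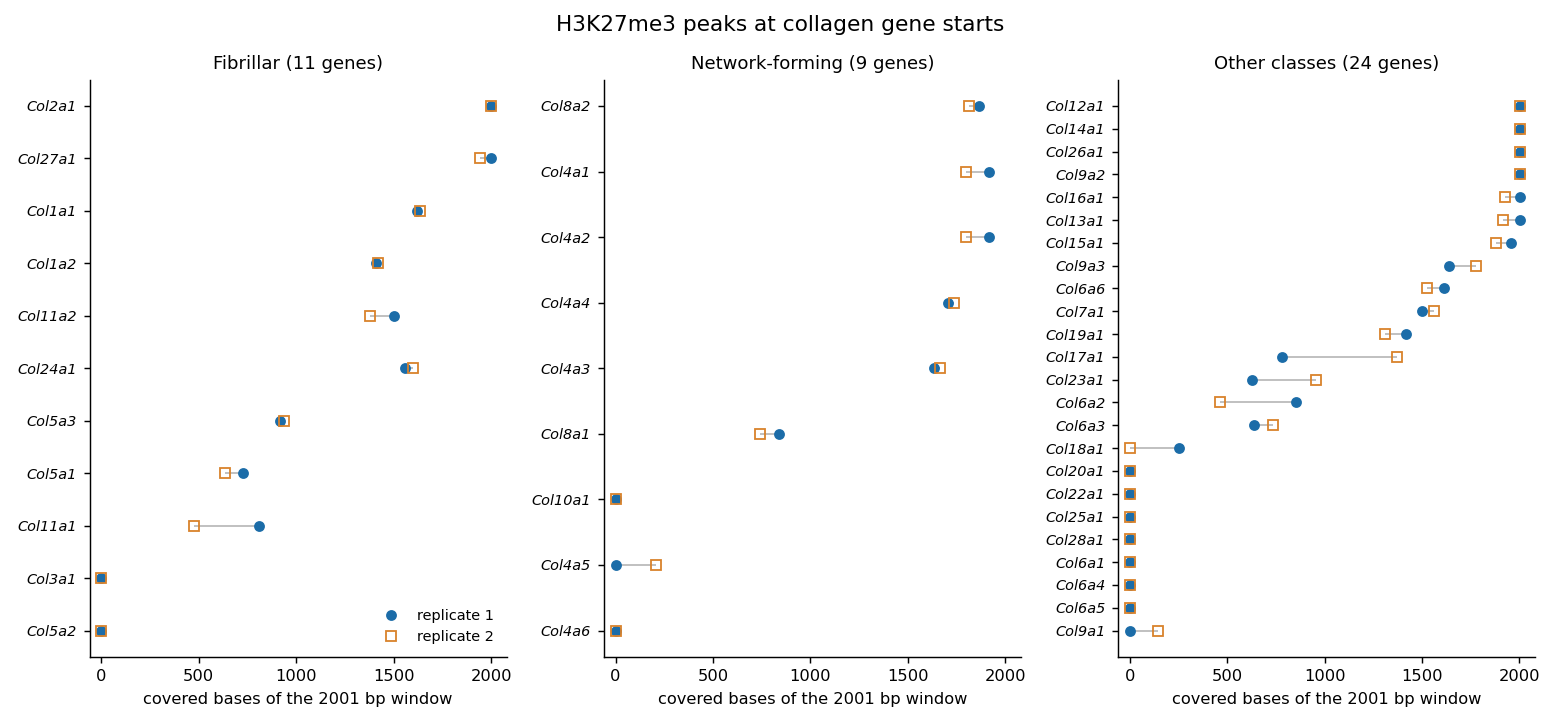
Bases of the 2001 bp window around each collagen gene's start that lay under peaks, for replicate 1 (filled circles) and replicate 2 (open squares), with a grey line joining the replicates of each gene and a panel for each class. In every class some genes sit at or near full coverage while others sit at 0, and the replicates fall close together except at genes such as Col17a1, Col11a1 and Col6a2.

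The replicates gave the same call for 41 of the 44 collagen genes, of which 11 had no peak in either. Over all coding genes, the calls differed at 1273 of 21755. The collagen genes whose calls differed were Col4a5 with 207 bp and Col9a1 with 146 bp in replicate 2 alone, and Col18a1 with 253 bp in replicate 1 alone. Over the 30 marked genes, covered lengths in replicates 1 and 2 correlated with a rho of 0.960 (Spearman) and an r of 0.940 (Pearson). For the highest peak signal, the largest deposited signal value among the peaks of a window, these were 0.852 and 0.856. These correlations describe genes that share 2 libraries and, at the type IV pairs, share peaks. The covered length differed between replicates by a median of 75 bp and by at most 589 bp, at Col17a1, which encodes the transmembrane collagen of hemidesmosomes.

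Among the fibrillar genes, Col2a1, the main collagen of cartilage (start at position 98004695 of chromosome 15, minus strand), had its whole window covered in both replicates. Its highest peak signal was 15.9 in replicate 1 and 12.4 in replicate 2. Col27a1, a minor fibrillar collagen of cartilage, had 2001 and 1945 bp covered with signals of 13.2 and 14.2. Among all peaks of the same replicate's list, these signals lay at the 99.8th and 98.8th percentile for Col2a1. For Col27a1 they lay at the 98.8th and 99.6th. On the same scale the median of all marked coding genes was 88.2 in replicate 1 and 91.7 in replicate 2. That of the marked collagen genes was close to it, at 89.2 and 91.4. The highest peaks of Col2a1 and Col27a1 thus stood near the top of each replicate's list, unlike those of the family at its median.

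The chains of type I collagen, the most abundant collagen of bone, tendon and skin, are made by Col1a1 (start at 94936224 of chromosome 11, plus strand) and Col1a2 (4504814 of chromosome 6, plus strand). Col1a1 had 1621 and 1636 bp covered with signals of 7.67 and 7.29. Col1a2 had 1412 and 1420 bp covered with signals of 6.85 and 6.07. The chains of this heterotrimer were thus marked at both loci, over similar lengths in the 2 replicates. Col11a2, a chain of the type XI collagen found inside cartilage fibrils, had 1502 and 1378 bp covered. Its partner Col11a1 had 811 and 477 bp. Col24a1, a minor fibrillar collagen of developing bone, had 1557 and 1601 bp.

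Col5a1 and Col5a3 encode chains of type V collagen, which starts the assembly of type I fibrils. Col5a1 had 725 and 635 bp covered and Col5a3 had 915 and 938 bp. Within both windows, the bases common to the replicates lay inside the gene. Beyond its window, Col5a1 also had 396 common bases upstream within 5 kb of its start. Col5a2, which encodes the remaining chain of type V, had no peak in either window. Col3a1, the second main fibrillar collagen of skin and vessels, also had none. The type V chains therefore did not share a call. Col3a1 (start at 45311538 of chromosome 1, plus strand) and Col5a2 (45503282, minus strand) lie tail to tail with their ends 24.6 kb apart. Both lay in a single stretch of 1372 kb with no base covered in both replicates, which also held the starts of Wdr75 and Gm5269. The nearest such base was 613123 bp from the start of Col3a1 and 421379 bp from that of Col5a2.

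Among the network-forming genes, type IV collagen is the scaffold of basement membranes, and its 6 genes lie as 3 head-to-head pairs. The chains of Col4a1 and Col4a2 occur in nearly all basement membranes, those of Col4a3, Col4a4 and Col4a5 in the kidney glomerulus, and that of Col4a6 beside Col4a5 in others. Of the pairs, Col4a1 with Col4a2 and Col4a3 with Col4a4 were marked at both genes, and Col4a5 with Col4a6 at neither. Across the genome, 171 of 1211 head-to-head coding pairs with starts within 1 kb were marked at both genes, or 14.1%. Among the 1209 such pairs without a Col4 gene, 169 were marked at both, 19 at a single gene (1.57%) and 1021 at neither (84.5%). Since the windows of such a pair overlap, a shared call is in large part built into the rule.

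The kilobase on each gene's own side, counted outward from the pair, does not overlap that of the partner. At Col4a1 (start at 11312826 of chromosome 8, minus strand) it was covered over 918 bp in replicate 1 and 893 bp in replicate 2. At Col4a2 (11312805, plus strand) it was covered over 1000 and 925 bp. The starts lie 21 bp apart with the genes overlapping there, and the short stretch between them lay under a peak in replicate 1 and under none in replicate 2, where a gap separated the peaks of the genes. The mark thus ran into both genes of this pair, with highest signals of 11.0 and 13.3 in their shared window.

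At Col4a4 (start at 82586849 of chromosome 1, minus strand) the gene-side kilobase was covered over 797 bp in replicate 1 and 1000 bp in replicate 2. At Col4a3 (82586921, plus strand) it was covered over 834 and 664 bp, and the 72 bp between the starts lay under peaks in both replicates. This pair too was covered on both sides, at lower signals of 6.57 and 7.23. Both gene sides held covered bases in each replicate at these 2 Col4 pairs, and did so at 77 of the other 1209 head-to-head pairs (6.37%). Most of those 1209 pairs carried no mark, with 1021 marked at neither gene and 169 at both. The 169 are the nearer comparison for 2 marked pairs, so coverage of both sides was not rare among marked pairs.

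The third pair, Col4a6 (start at 141474076 of the X chromosome, minus strand) and Col4a5 (141475385, plus strand), has its starts 1309 bp apart. The other pairs lie on autosomes, while a male line carries a single X chromosome. Whether copy number bears on the calls was not tested. Replicate 1 had no peak on either gene side or between the starts. Replicate 2 had 207 bp on the Col4a5 side only, at a signal of 3.76. In the authors' relaxed peak lists, the window of Col4a6 had 657 bp covered in replicate 1 and 150 bp in replicate 2. That of Col4a5 had 0 and 217 bp there. The pair lay in a stretch of 1054 kb without a base covered in both replicates, of which 150000 bp are unsequenced in the reference. The CpG observed-to-expected ratio over 500 bp to either side of the midpoint was 0.782 at Col4a1 with Col4a2, 0.456 at Col4a4 with Col4a3 and 0.189 at Col4a6 with Col4a5. At Col4a6 with Col4a5 that stretch held neither start, while at the other pairs it held both. Around each gene's own start the ratio was 0.447 at Col4a5 and 0.300 at Col4a6. It was 0.452 at Col4a3, 0.459 at Col4a4, 0.775 at Col4a1 and 0.785 at Col4a2. The promoters printed above hold fewer CG in the order of the pairs by highest signal. Whether CpG content bears on the signal was not tested.

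**Figure D2:**
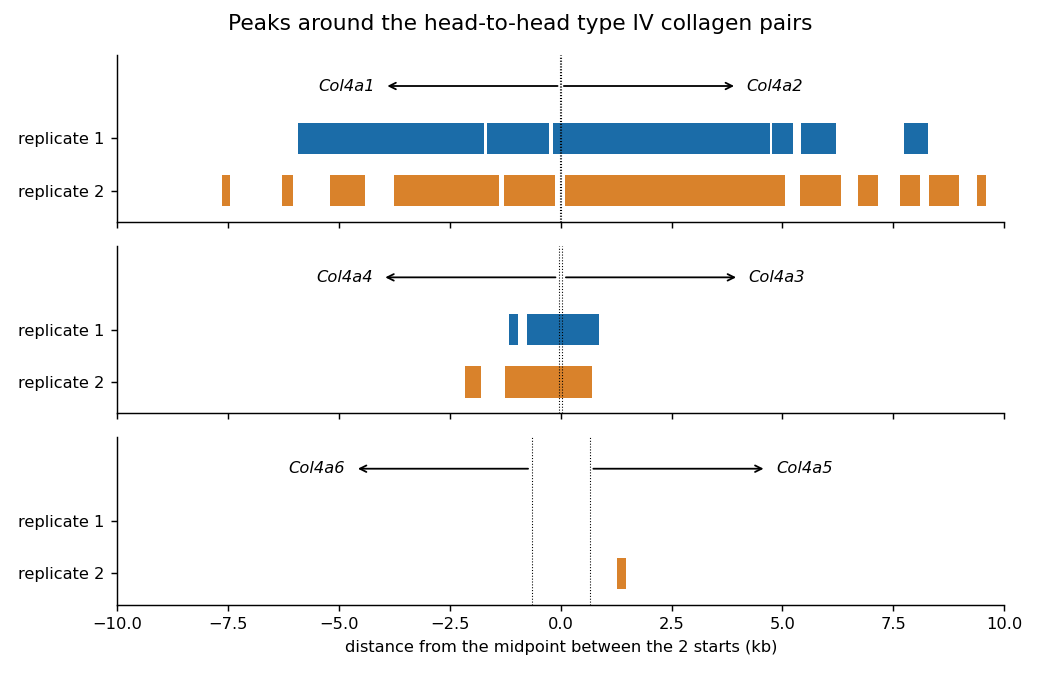
Peaks of replicate 1 (blue) and replicate 2 (orange) around the midpoint between the starts of each head-to-head Col4 pair, with distance in kb on the horizontal axis and arrows for the genes. Peaks cover both genes of the 2 close pairs in each replicate, while the Col4a6 and Col4a5 pair carries only the short replicate 2 peak on the Col4a5 side.

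The other network-forming genes are Col8a1 and Col8a2, chains of the hexagonal lattice under the corneal endothelium, and Col10a1, the collagen of hypertrophic cartilage. Col8a2 had 1866 and 1813 bp covered with signals of 10.4 and 9.83. Col8a1 had 839 and 740 bp with signals of 4.38 and 5.49. Col10a1 had no peak in either replicate. The chains of type VIII thus shared the call but differed in covered length by more than the replicates of either gene did.

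The collagens that sit on the surface of fibrils (FACIT collagens) were marked in 6 of 9 cases, against 26.1% of all coding genes. Col12a1 and Col14a1, which decorate type I fibrils, were covered over the whole window in both replicates. Their signals were 13.7 and 13.6 at Col12a1 and 13.7 and 12.4 at Col14a1. Col9a2 and Col9a3 encode chains of type IX, which coats cartilage fibrils, and were covered over 2001 and 2001 bp and over 1639 and 1777 bp. Col9a1, the gene for the remaining type IX chain, was not marked at its annotated start. Col16a1 had 2001 and 1924 bp covered and Col19a1 had 1417 and 1308 bp. Col20a1 and Col22a1, which complete this class, had no peak.

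Beaded-filament genes encode the chains of type VI collagen, a microfilament around cells of muscle and other tissues. They were marked in 3 of 6 cases, against 26.1% of all coding genes. Col6a6 had 1614 and 1525 bp covered, Col6a2 had 853 and 463 bp, and Col6a3 had 637 and 737 bp. Col6a1, Col6a4 and Col6a5 had no peak in their windows. Col6a6, Col6a5 and Col6a4 lie in tandem on chromosome 9 and Col6a2 and Col6a1 in tandem on chromosome 10, so the mark in each cluster was found at a single gene start.

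Col7a1, the anchoring fibril collagen that ties epidermis to dermis, had 1500 and 1561 bp covered with signals of 7.79 and 5.13. Of the 4 transmembrane genes, Col13a1, a collagen of the neuromuscular junction, had 2001 and 1915 bp. Col17a1 had 781 and 1370 bp and Col23a1 had 630 and 956 bp. The remaining transmembrane gene, Col25a1, had none at its annotated 5' end, while its coding start, described below, was marked. Col15a1 and Col18a1 encode basement membrane zone collagens with an endostatin-type end. Col15a1 had 1955 and 1882 bp covered, whereas Col18a1 had 253 bp in replicate 1 alone at a signal of 3.11. Col26a1, a collagen assigned to none of these classes, was covered over the whole window in both replicates, and Col28a1, known from peripheral nerve, had no peak.

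The use of a single annotated 5' end mattered for 2 unmarked genes. When every annotated transcript start was allowed, 32 of 44 collagen genes had a marked start, against 29.4% of all coding genes. The only start of Col25a1 annotated with coding transcripts lay 49.4 kb into the gene. It had 1870 bp covered in replicate 1 and 1675 bp in replicate 2, at signals of 9.86 and 9.54. The CpG ratio there was 0.690, and it was 0.411 at the gene's annotated 5' end, which had no peak. That 5' end belonged to a single transcript that is not annotated as coding. Col9a1 had a coding start 17.6 kb in with 718 and 241 bp covered at signals of 4.38 and 4.34. In Col9a1 the inner peaks were weak, while those of Col25a1 were above the median signal of the 30 marked collagen genes, 7.87 and 7.66. The 4 other annotated starts of Col18a1 had no peak in either replicate.

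Peaks lay more often on the gene's side of the start, at a rate close to that of marked genes in general. Within 5 kb of the start, 23 of the 30 marked collagen genes (76.7%) had more bases covered in both replicates downstream than upstream, against 68.9% of all marked coding genes. This held for 8 of 9 marked fibrillar, 3 of 6 network-forming and 12 of 15 other genes, with Col1a1 as the fibrillar exception. Each close Col4 pair shares its peaks, so its genes counted once in each direction. The start base itself lay under a peak of both replicates at 21 of all 44 collagen genes (47.7%), against 9.59% of all coding genes. Among marked genes, which the rule chose for a peak nearby, it did so at 21 of 30 collagen genes (70%), against 36.7% of all marked coding genes. The 9 marked collagen genes with an uncovered start were Col11a1, Col13a1, Col23a1, Col4a1, Col4a2, Col5a1, Col5a3, Col6a2 and Col8a2.

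**Figure D3:**
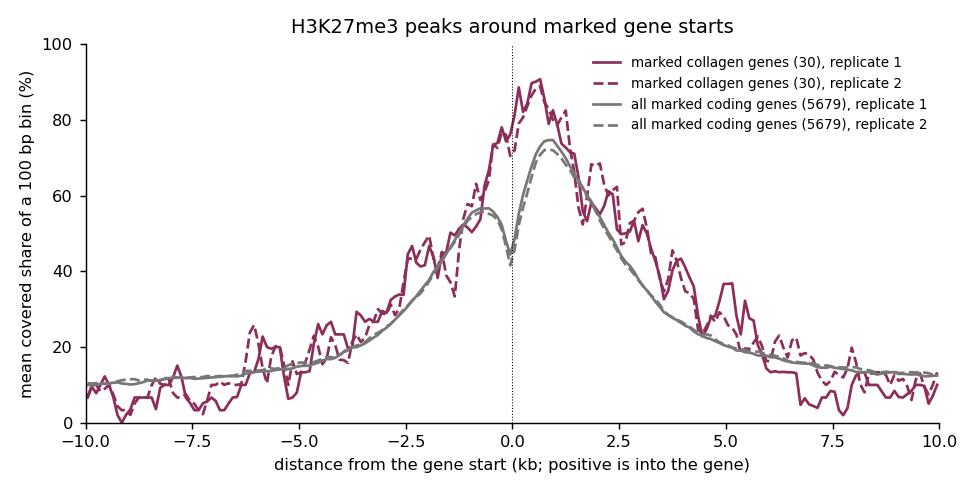
Percent of bases under peaks in 100 bp bins by distance from the gene start, for the marked collagen genes and for all marked coding genes in each replicate, with positive distances inside the gene. Both sets were chosen for a peak within 1 kb; coverage of the marked collagen genes is highest 600 bp inside the gene, at 90.7% in replicate 1 and 88.8% in replicate 2.

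CpG content separated marked from unmarked collagen genes only in part. The median CpG observed-to-expected ratio over 500 bp to either side of the start was 0.435 over the 44 collagen genes, against 0.558 over all coding genes. It was 0.470 at marked and 0.284 at unmarked collagen genes, against 0.634 at marked and 0.474 at unmarked coding genes. All coding genes were then split into 3 groups of about equal size by this ratio. In the lowest group 6 of 14 collagen genes (42.9%) were marked, against 10.5% of all coding genes. In the middle group it was 15 of 21 (71.4%), against 39.3%, and in the highest group 9 of 9 (100%), against 28.4%. These counts take Col4a3 and Col4a4 as separate genes in the middle group, and Col4a1 and Col4a2 in the highest, although each pair shares its peaks. The share of marked collagen genes thus lay above that of all coding genes in each group, and the family held fewer CpG-rich starts than the genome at large. Col1a2, with a ratio of 0.211, Col24a1 with 0.257 and Col1a1 with 0.300 were marked in the lowest group, to which unmarked Col3a1 (0.178), Col20a1 (0.085) and Col28a1 (0.084) also belonged.

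**Figure D4:**
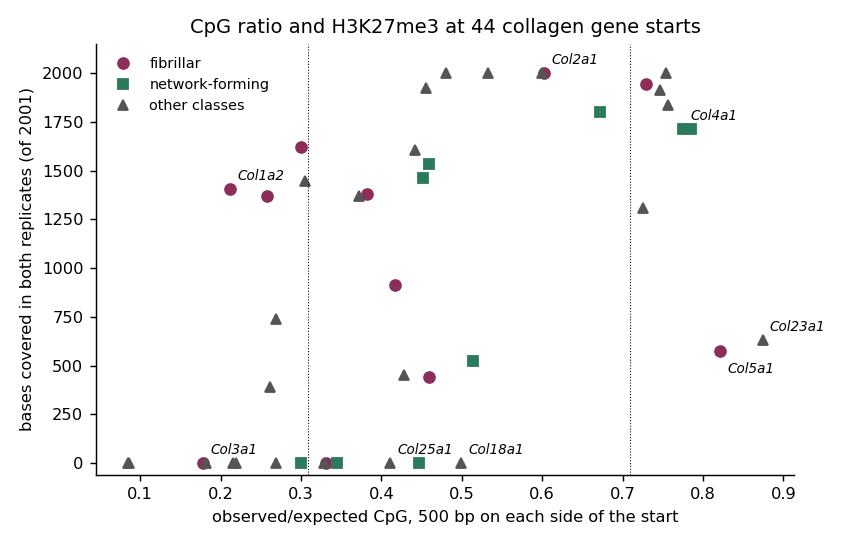
Covered bases common to both replicates against the CpG observed-to-expected ratio at each collagen gene start, with a point for each gene coloured by class and the group borders drawn as vertical lines. Genes at 0 lie at the low and middle ratios, and no gene of the highest group sits at 0.

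To measure how far the mark reached, bases covered in both replicates were joined into domains where gaps were at most 3 kb. The 30 marked collagen genes touched 28 distinct domains, since each close Col4 pair shared its own. Col1a1 had the longest, 23.1 kb, which was longer than 98.4% of the 16987 domains in the genome. Those of Col2a1 (13.9 kb), of Col4a1 with Col4a2 (13.3 kb), of Col8a2 (12.8 kb), Col13a1 (12.5 kb) and Col27a1 (10.7 kb) also passed 10 kb, while those of Col17a1 (0.837 kb), Col11a1 (0.732 kb) and Col6a3 (0.391 kb) were the shortest. Domains of at least 10 kb thus made up 6 of 28 (21.4%) at marked collagen genes, against 1367 of 16987 (8.05%) anywhere in the genome, where a domain need not lie at a gene start. The domains of 26 marked collagen genes held no other coding gene start, and those of the Col4 pairs held only the partner's.

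Past the first kilobase, the gene body was covered in both replicates over 52.2% at Col1a1, 45.4% at Col16a1 and 44.1% at Col8a2. These 3 of 44 collagen genes (6.82%) passed 25%, against 7.65% of the 21056 coding genes long enough to be measured. Col2a1 followed with 19.8%, Col9a3 with 18.8%, Col11a2 with 13.7% and Col4a1 with 11.7%. Broad coverage of the body was therefore about as frequent among collagen genes as in the genome. Collagen genes are long, with a median of 114.4 kb against 17.4 kb for all coding genes, so a peak of the same length covers less of them.

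**Figure D5:**
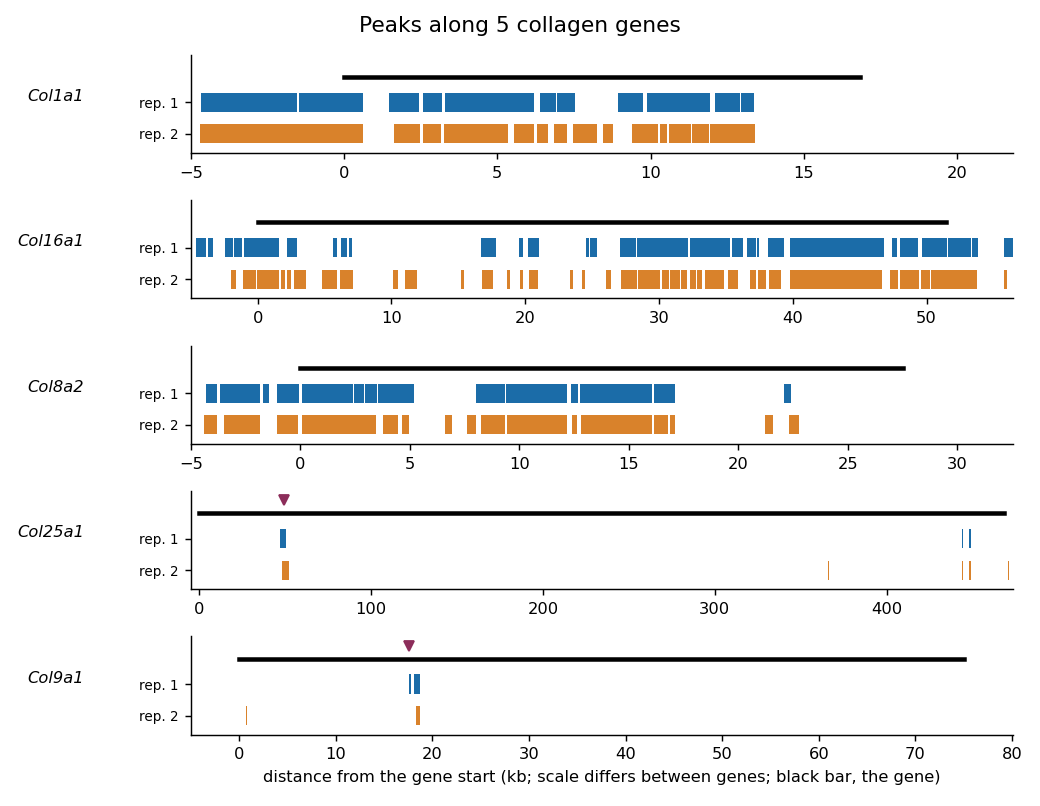
Peaks of replicate 1 (blue) and replicate 2 (orange) along 5 collagen genes, with distance from the gene start in kb, a black bar for the gene and a triangle for an inner coding start that was marked. Col1a1, Col16a1 and Col8a2 carry peaks over much of their bodies, while Col25a1 and Col9a1 carry none common to both replicates at their 5' end and some at the inner start.

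Genes that act on collagen chains were examined by the same rule. Of 21 genes for chain synthesis and folding in the endoplasmic reticulum, 12 (57.1%) were marked, against 26.1% of all coding genes. The prolyl 4-hydroxylase subunit genes P4ha2 (1700 and 1581 bp) and P4ha3 (1723 and 1733 bp) were marked, and P4ha1 had 60 bp in replicate 2 alone. Serpinh1, the collagen chaperone HSP47, had 1604 and 1684 bp. The other marked genes were Plod2, P3h2, P3h3, P3h4, Fkbp10, Fkbp14, Colgalt2, Mia3 and Creb3l1, of which the neighbours P3h4 and Fkbp10 share part of their windows. Plod1 and P3h1 had peaks in replicate 2 alone, and P4hb, Plod3, Crtap, Ppib, Colgalt1 and Tmem38b had none. Several of the unmarked genes, such as P4hb and Ppib, also serve the folding of proteins other than collagen. Whether that relates to their call was not tested.

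Of 13 genes for cross-linking and for trimming of the secreted chains, 10 (76.9%) were marked, against 26.1% of all coding genes. Loxl1, a lysyl oxidase that cross-links collagen and elastin, was covered over its whole window in both replicates. Lox had 1722 and 1759 bp covered and Loxl3 had 1747 and 1707 bp. Bmp1, which cuts the C-terminal propeptide, had 1729 and 1681 bp, and Adamts2, which cuts the N-terminal one, had 1635 and 1753 bp. The remaining marked genes were Loxl4, Tll1, Tll2, Adamts3 and Adamts14. Loxl2 and Pcolce had no peak, and Pcolce2 had 366 bp in replicate 2 alone.

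Of 10 collagen receptor genes, 6 (60%) were marked, against 26.1% of all coding genes. Itga11, an integrin subunit that binds fibrillar collagen, was covered over the whole window in both replicates. Itga1 had 1482 and 1258 bp covered, Itga2 had 1765 and 1423 bp, and Mrc2, an endocytic collagen receptor, had 1897 and 2001 bp. The discoidin domain receptor genes were covered over less, with 388 and 1044 bp at Ddr1 and 112 and 346 bp at Ddr2. Itga10, Itgb1, Gp6 and Lair1 had no peak. With at least 50% of the window required in each replicate, 6 synthesis genes, 9 cross-linking and trimming genes and 4 receptor genes were called, against 14% of all coding genes.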

How the data were processed

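H3K27me3 ChIP-seq of 2 biological replicates of a single group was analysed from the deposited peak lists in mm10. Per the file headers, the authors' readme texts name each list as pseudoreplicated, relaxed or replicated and give the narrowPeak format. The aligner, peak caller, thresholds and any control were not given in the sources used here. The signal of each deposited peak is the authors' own value, on a scale that is not stated, and was used only to describe and rank genes within a list. The deposited −log10 q of each peak served as a filter in an alternative.

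Peaks of each replicate's pseudoreplicated list were merged and intersected with windows of 1 kb to either side of gene starts (GENCODE M21, protein-coding, chromosomes 1 to 19 and X), with an overlap of at least 1 bp (Python 3.11.15, NumPy 2.4.6, pandas 2.3.3, pysam 0.24.0, Matplotlib 3.10.9). Covered bases, domains and CpG ratios were computed from the same intervals and the GRCm38 sequence. No statistical test was run, because there is a single group and genes are not replicates. The interval code was tested on simulated data. Read depth is unknown, so no counting error could be given. With 2 replicates, both values are given in place of an SD. The members, classes and lists were chosen with earlier results of these data known. Named genes were all members, all genes of the 3 pathway lists and the 2 marker lists, with full values for those a result turns on. Alternatives were other window widths, a q filter, other deposited lists, a covered share of 50%, all transcript starts and each replicate alone. A further pooled list, its relaxed form and an mm9 list were not used.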

Additional observations from a re-analysis of the deposited data

How the results depend on the processing

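The count of marked collagen genes was 30 and lay between 22 and 32 over the 10 alternatives. It was 29 with a 0.5 kb flank, without Col11a1, and 30 with a 2.5 kb flank, with a −log10 q of at least 2 or with the replicated list of the second processing run. It was 31 with the relaxed lists or the replicated list of the first run, both adding Col4a6. With 50% of the window required it was 22, without Col11a1, Col17a1, Col23a1, Col5a1, Col5a3, Col6a2, Col6a3 and Col8a1. With replicate 2 alone it was 32, adding Col4a5 and Col9a1, and with replicate 1 alone 31, adding Col18a1. Of the 44 genes, 22 were marked under each of these choices and 9 under none. The share over all coding genes lay between 13.96% and 34.2%. The 50% rule lowered the count of synthesis genes to 6 of 21 and the share of all coding genes to 13.96%, since by construction it removes short peaks. Covered shares of single genes were compared under the alternatives other than the 50% rule, which leaves that share as it is. Of these 396 shares, 239 moved by at most 1 SD between the replicates and 157 by more. Genes without a covered base under any setting, such as Col10a1, count as unmoved. Where the replicates were equal, as at Col12a1, any change counts as a move. The split is therefore no measure of how stable the coverage is. No paired analysis was possible because the series holds a single group. The peaks of Col4a5, Col9a1 and Col18a1 were in a single replicate in the relaxed lists too, over 217 and 348 bp of replicate 2 and 403 bp of replicate 1, and neither replicated list held them. Read depth, which could limit such weak peaks, is unknown.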

Other observations

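Col4a1 has a second annotated coding start 33.2 kb into the gene, which was marked over 1567 bp in replicate 1 and 1570 bp in replicate 2, at signals of 10.1 and 7.81. It lies far outside the domain of the promoter that Col4a1 shares with Col4a2, so Col4a1 carried peaks at both of these starts.

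Col10a1 lay in the longest stretch without a base covered in both replicates among the unmarked collagen genes, 2207 kb, followed by Col3a1 with Col5a2 at 1372 kb. Col6a1 lay closest to a covered base, 5810 bp from its start, followed by Col9a1 at 18337 bp and Col6a4 at 20013 bp. Col10a1 itself lay 91154 bp from the nearest covered base, and Col3a1, at 613123 bp, lay farthest from one.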
